A study of Mus musculus with 2 samples.

Results

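The 10 genes described here encode ligands and receptors through which macrophages restrain or support T cells and through which they are themselves restrained from engulfing other cells. They are Cd274, Pdcd1lg2, Havcr2, Vsir, Cd40, Cd80, Cd86, Lgals9, Sirpa and Cd47. They were chosen by name and matched through their Entrez identifiers to RefSeq symbols, 10 of the 15605 genes that the files list between them. All 10 were listed in both libraries.

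RNA came from peritoneal macrophages, the phagocytes of the abdominal cavity, of C57BL/6 mice aged 6 to 8 weeks. One library was from mice lacking Lgmn, the gene of the lysosomal protease legumain, and 1 from wild type mice. Macrophages of both genotypes were harvested after 4 days beside EO771, a carcinoma line of the mouse mammary gland. Co-culture was thus shared by both libraries, and no library from macrophages kept alone is used here. How many mice were pooled, how Lgmn was inactivated and whether a membrane separated the cells are not given in the sources used here. There were no replicates, so the values below describe these 2 libraries and carry no p-value.

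Antigen-presenting cells display peptides to T cells together with a second signal. CD80 and CD86, proteins of the B7 family, give that signal through CD28 and withdraw it through CTLA4, while PD-L1 and PD-L2, encoded by Cd274 and Pdcd1lg2, restrain T cells through PD-1. CD40 receives help from T cells that carry CD40 ligand, and CD47 on a target cell binds SIRPA on a macrophage to inhibit engulfment. PD-L1 on macrophages is one of the signals through which T cells are restrained in tumours.

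The knockout library held 11740202 estimated counts and the wild type library 11885784. Lgmn itself had 426 counts in the knockout library, against 23550 in the wild type library, so the libraries follow their labels. Ratios are knockout over wild type after TMM scaling and the addition of 1 scaled count, and each interval is a 95% Clopper-Pearson interval that covers counting error only. Genes entered the comparison when the higher library had at least 50 counts, which 9498 genes did. A 2-fold difference upward in the knockout library was seen in 576 of these (6.06%) and one downward in 165 (1.74%). All 11 macrophage markers were listed, with a summed FPKM of 20020 in the knockout library and 20970 in the wild type library. Lyz2 and Cd68 made up most of both sums, and the other 9 markers summed to 3780 in the knockout library and 2603 in the wild type library. The 11 had a median log2 ratio of 0.40, with 7 above 0.

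None of the checkpoint and costimulatory genes reached a 2-fold difference. Of the 10, 9 had enough counts, and 0 lay past 2-fold upward, 0 downward, against 6.06% and 1.74% of all genes. Past 1.5-fold lay 1 gene upward, Sirpa, and 0 downward, against 16.5% and 6.39% of all genes. Pdcd1lg2, with 14 counts in the knockout library and 12 in the wild type library, was too low for a ratio to be read. The median log2 ratio of the 9 was -0.01, beside -0.00035 over all 9498 genes. Sirpa had the highest log2 ratio, 0.62, and Lgals9 the lowest, -0.45. The counting interval lay above 1 for Sirpa, Cd40 and Cd274, below 1 for Cd47, Havcr2 and Lgals9, and included 1 for Cd86, Cd80 and Vsir. In bulk RNA, fewer cells of a type and less RNA per cell cannot be told apart.

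**Figure D1:**
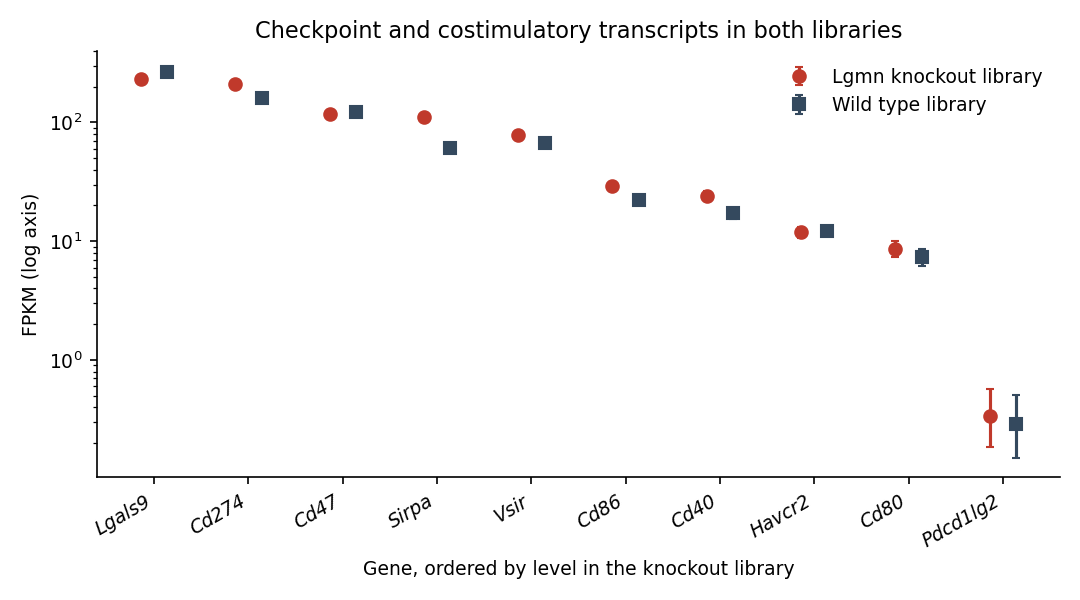
FPKM of the 10 genes (log axis) in the Lgmn knockout library (circles) and the wild type library (squares), 1 library each; bars are 95% Poisson intervals of the counts, hidden by the symbol where they are narrow. Lgals9 and Cd274 are the highest in both libraries, Pdcd1lg2 lies 25.5 times below the next gene in the knockout library and 25.4 times in the wild type library, and Sirpa and Vsir exchange places.

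The order of the levels, compared as FPKM and so per transcript length, was nearly shared. In the knockout library it ran from Lgals9 through Cd274, Cd47, Sirpa, Vsir, Cd86, Cd40, Havcr2 and Cd80 to Pdcd1lg2. In the wild type library Vsir stood above Sirpa and the other 8 genes kept their places. Neighbours in these orders differed by more than their counting intervals in both libraries, with the closest pair in the knockout library Cd47 and Sirpa at 1.07-fold and in the wild type library Vsir and Sirpa at 1.10-fold. These intervals hold no variation between mice. The FPKM of all 10 genes summed to 823 in the knockout library and 736 in the wild type library.

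Cd274 and Pdcd1lg2, the genes of the inhibitory B7 ligands PD-L1 and PD-L2, held the second and the lowest level of the set. Cd274 (Entrez 60533, chromosome 19, 29362107 to 29388095 in GRCm38) had 9189.54 counts (FPKM 210.7) in the knockout library, against 7036.47 (FPKM 159.1) in the wild type library. This placed it 448th of 14756 listed genes in the knockout library and 579th of 14681 in the wild type library. The scaled ratio was 1.12-fold, with an interval of 1.09 to 1.16, a log2 ratio of 0.16. Among all 9498 genes, 38.0% had a higher ratio. Its estimated counts are not whole, so part of its reads was divided with other genes.

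Pdcd1lg2 (Entrez 58205, chromosome 19, 29410919 to 29472927) had 14 counts (FPKM 0.34) in the knockout library, against 12 (FPKM 0.29) in the wild type library. Its interval of 0.430 to 2.37 leaves any difference between 2.33-fold lower and 2.37-fold higher undetectable at this depth. The level of Cd274 was 620 times that of Pdcd1lg2 in the knockout library and 549 times in the wild type library. RefSeq windows before the starts of the genes lie 43.481 kb apart on the same strand. Plgrkt, the gene on the other side of Cd274, had 534 counts in the knockout library and 522 in the wild type library, a log2 ratio of -0.19. Its RefSeq range ends at 29367292 and overlaps that of Cd274, and without known strand handling reads of the overlap cannot be told apart.

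The 250 bases before a RefSeq transcript start are shown for these neighbouring genes, which differ so widely in level, and for Lgals9, the most abundant member, all from the RefSeq table of GRCm38.p6. RefSeq windows were matched for 7 of the 10 genes, all but Cd40, Cd86 and Sirpa. The window of Cd274 lies inside the gene range given above, and its first part overlaps Plgrkt. The windows of Cd80 and Cd47 also lie inside their gene ranges. Windows are written from 5′ to 3′ on the gene's strand, which is plus for Cd274 (chr19:29367188-29367437) and Pdcd1lg2 (chr19:29410669-29410918) and minus for Lgals9 (chr11:78984925-78985174). Capitals mark matches on either strand to 4 motifs, the STAT element TTCNNNGAA, the IRF element of GAAA repeated after 2 bases of any kind, the kappaB consensus of NF-kappaB and the TATA box TATAAA.
Cd274: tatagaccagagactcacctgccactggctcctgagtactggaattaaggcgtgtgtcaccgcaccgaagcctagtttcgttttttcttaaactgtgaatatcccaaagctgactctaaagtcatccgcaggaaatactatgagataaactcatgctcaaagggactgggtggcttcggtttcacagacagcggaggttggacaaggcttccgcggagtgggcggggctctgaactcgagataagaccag
Pdcd1lg2: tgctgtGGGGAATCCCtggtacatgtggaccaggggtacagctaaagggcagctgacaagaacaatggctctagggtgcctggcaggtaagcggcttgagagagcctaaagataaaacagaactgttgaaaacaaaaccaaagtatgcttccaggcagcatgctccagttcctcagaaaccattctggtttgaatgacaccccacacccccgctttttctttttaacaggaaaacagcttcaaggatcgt
Lgals9: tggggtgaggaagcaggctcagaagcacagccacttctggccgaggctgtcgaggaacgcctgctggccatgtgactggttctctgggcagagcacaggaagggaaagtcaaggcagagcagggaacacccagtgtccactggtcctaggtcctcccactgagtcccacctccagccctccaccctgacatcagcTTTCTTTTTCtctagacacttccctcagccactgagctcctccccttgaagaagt
Cd274 had no match in this window. Pdcd1lg2 had 1 kappaB match, beginning 244 bases before the start, and Lgals9 had 1 IRF match on the opposite strand, beginning 55 bases before it. The matches do not overlap another motif. The other 4 genes with windows, Havcr2, Vsir, Cd80 and Cd47, had none. Over all 32851 RefSeq windows of this length, 7.02% held the STAT element, 2.98% the IRF element, 7.25% the kappaB consensus and 12.4% the TATA box.

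The T cell costimulators CD80 and CD86 were both transcribed at far lower levels than PD-L1, and both had ratios near 1. Cd86 (Entrez 12524, chromosome 16, 36568956 to 36666158) had 875 counts (FPKM 28.99) in the knockout library, against 679 (FPKM 22.19) in the wild type library. Its ratio was 1.11-fold, with an interval of 0.999 to 1.22. Cd80 (Entrez 12519, chromosome 16, 38457430 to 38495958) had 174 counts (FPKM 8.67) in the knockout library, against 150 (FPKM 7.37) in the wild type library. Its ratio was 0.995, with an interval of 0.795 to 1.25.

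Cd86 stood at 3.34 times the FPKM of Cd80 in the knockout library and 3.01 times in the wild type library. PD-L1 also binds CD80 on the same cell, and Cd274 stood at 24.3 times the FPKM of Cd80 in the knockout library and at 21.6 times in the wild type library. A ratio between transcripts within a library does not depend on the scaling between libraries, but the length trend described below can act on its difference between them. The counting interval of the difference between the libraries included 1 for both, at 1.11-fold for Cd86 over Cd80 (0.867 to 1.42) and 1.13-fold for Cd274 over Cd80 (0.897 to 1.41). On the log2 scale the differences were 0.15 and 0.17. With the length trend subtracted they were -0.0023 for Cd86 over Cd80 and -0.20 for Cd274 over Cd80. These pairs, like the others below, were chosen after the values were known.

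Cd40 (Entrez 21939, chromosome 2, 165055614 to 165071654), the receptor for T cell help, had 480 counts (FPKM 24.2) in the knockout library, against 348 (FPKM 17.29) in the wild type library. It was 1.18-fold higher, with an interval of 1.03 to 1.36 and a log2 ratio of 0.24. Its ligand gene Cd40lg was listed in neither library. Of 15 genes of CD40 signalling with enough counts, 0 passed 2-fold, against 6.06% of all genes upward and 1.74% downward. Of the 15, 14 had a log2 ratio above 0, as did 4747 of all 9498 genes, and the median was 0.41. After the length adjustment described below 13 lay above 0, as did 4642 of all 9498 genes, with a median of 0.30. Of the 15, 1, Nfkbia, then passed 2-fold upward with a log2 value of 1.003, against 2.14% of all genes. The 3 with the greatest ratios were Nfkbia, an inhibitor of NF-kappaB and a target of it, at 1.72-fold (1.55 to 1.92), Rel, an NF-kappaB subunit, at 1.72-fold (1.14 to 2.71) from 69 counts in the knockout library and 34 in the wild type library, and Traf3, an adaptor of CD40, at 1.66-fold (1.24 to 2.26). Traf3 has a transcript of 7164 bases, and its log2 ratio of 0.73 was 0.0068 once adjusted for length.

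Sirpa, of the engulfment checkpoint, showed the greatest ratio of the set before length adjustment. After it Cd40 was higher, at a log2 of 0.45 against 0.41 for Sirpa. Sirpa (Entrez 19261, chromosome 2, 129591042 to 129632228), the inhibitory receptor for CD47 on macrophages, had 5115 counts (FPKM 110.32) in the knockout library, against 2856 (FPKM 60.79) in the wild type library. It was 1.54-fold higher, with an interval of 1.47 to 1.61, and 15.2% of all genes had a higher ratio. Macrophage markers that are not members had log2 ratios of 1.23 for Mertk, 0.96 for Csf1r, 0.61 for Itgam and 0.47 for Adgre1. Those of Cd68 and Lyz2 were -0.70 and -0.32. Length adjustment gave 1.08 for Mertk, 0.75 for Csf1r, 0.26 for Itgam, 0.39 for Adgre1, -0.44 for Cd68 and -0.02 for Lyz2. Of all 11 macrophage markers, 7 lay above 0 before adjustment and 8 after it. Their part in the ratio of Sirpa was not tested.

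Cd47 (Entrez 16423, chromosome 16, 49851328 to 49912503), the ligand of SIRPA, had 2694 counts (FPKM 118.1) in the knockout library, against 2827 (FPKM 122.21) in the wild type library. It was 1.22-fold lower, with an interval of 1.16 to 1.29. The 2 transcripts were therefore nearly level in the knockout library, with an FPKM of Sirpa 0.934 times that of Cd47, against 0.497 times in the wild type library. This ratio differed 1.88-fold between the libraries, with an interval of 1.75 to 2.02. On the log2 scale the difference was 0.91, or 0.54 with the length trend subtracted. Cd47 is made by most cells, so its counts cannot be assigned to macrophages alone.

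The Sirpb1 genes, which encode relatives of SIRPA without its inhibitory tail, lay on the other side of 1. They were looked up after the values of Sirpa were seen. Sirpb1b had 367 counts in the knockout library and 556 in the wild type library, a log2 ratio of -0.82. Sirpb1c had 1019 counts in the knockout library and 1553 in the wild type library, a log2 ratio of -0.83. Sirpb1a had 245 counts in the knockout library and 270 in the wild type library, a log2 ratio of -0.36. These genes on chromosome 3 are near copies whose reads are divided by an estimate, so their sum is the safer value. It was 1631 counts in the knockout library and 2378 in the wild type library, 1.70-fold lower (1.60 to 1.81). The sum was not adjusted for length. Once adjusted for length, the log2 ratios were -0.59 for Sirpb1b, -0.59 for Sirpb1c and -0.09 for Sirpb1a, against 0.41 for Sirpa. The counts of Sirpa were whole numbers in both libraries.

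Among other inhibitory receptors of myeloid cells and partners of engulfment, 3 of 20 genes passed 2-fold upward and 1 downward. The shares of all genes were 6.06% and 1.74%. The median log2 ratio of the 20 was 0.05, or 0.19 once adjusted for length. Lrp1, the engulfment receptor that binds calreticulin, had 2642 counts in the knockout library and 570 in the wild type library, 3.97-fold higher (3.63 to 4.36), but its transcript is very long and its log2 ratio of 1.99 was 0.58 once adjusted for length. Siglec1, a sialic acid receptor of macrophages, was 2.75-fold higher (2.44 to 3.12, a log2 ratio of 1.46, or 0.84 once adjusted), and Siglecf, another receptor of that family, 2.56-fold higher (1.82 to 3.77) from 127 counts in the knockout library and 42 in the wild type library. Cd24a, whose human counterpart is another signal against engulfment, was the gene past 2-fold downward, with 401 counts in the knockout library and 715 in the wild type library, 2.08-fold lower (1.84 to 2.35). It is named after its value was seen, and once adjusted for length its log2 ratio of -1.05 was -0.88. After adjustment 1 of the 20 genes, Siglecf, passed 2-fold upward and 0 downward, against 2.14% and 1.9% of all genes. Qpctl, an enzyme that modifies CD47 for binding to SIRPA, had 97 counts in the knockout library and 84 in the wild type library and a log2 ratio of -0.01. Ptpn6 and Ptpn11, the phosphatases SHP-1 and SHP-2 that SIRPA recruits, had log2 ratios of 0.46 and 0.76, or 0.56 and 0.25 once adjusted for length.

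Vsir (Entrez 74048, chromosome 10, 60346851 to 60430294) encodes VISTA, an inhibitory B7-like protein abundant on myeloid cells. It had 4534 counts (FPKM 78.18) in the knockout library, against 3925 (FPKM 66.74) in the wild type library. After scaling its ratio was 0.991, with an interval of 0.949 to 1.03. Its RefSeq range lies inside that of Cdh23, which had 3 counts in the knockout library and 5 in the wild type library. Selplg, the gene of PSGL-1, a partner of VISTA, was 1.48-fold lower (1.40 to 1.56).

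Lgals9 and Havcr2, which encode galectin-9 and the receptor TIM-3, both had ratios below 1. Lgals9 (Entrez 16859, chromosome 11, 78962979 to 78984924) had 4080 counts (FPKM 231.61) in the knockout library, against 4782 (FPKM 267.84) in the wild type library. It was 1.37-fold lower, with an interval of 1.31 to 1.42, and 87.3% of all genes had a higher ratio. Havcr2 (Entrez 171285, chromosome 11, 46454931 to 46481255) had 384.5 counts (FPKM 11.86) in the knockout library, against 403.76 (FPKM 12.28) in the wild type library. It was 1.23-fold lower, with an interval of 1.06 to 1.41, and its counts, like those of Cd274, are not whole.

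The FPKM of Lgals9 was 19.5 times that of Havcr2 in the knockout library and 21.8 times in the wild type library, a difference of 0.898-fold whose interval of 0.774 to 1.04 included 1. On the log2 scale this difference was -0.16, or 0.06 once adjusted for length. Of 4 other genes of the galectin list with enough counts, 0 passed 2-fold, against 6.06% of all genes upward and 1.74% downward. Of the 4, 3 had a ratio below 1, as did 4751 of all 9498 genes. After length adjustment 2 of the 4 had a log2 ratio above 0, and their median was -0.0068. Lgals1, the gene of galectin-1, was 1.40-fold lower (1.38 to 1.43), and Lgals3bp, which encodes a binding partner of galectin-3, was 1.27-fold lower (1.24 to 1.30), while Lgals8 was 1.16-fold higher (1.08 to 1.25). Nos2, the nearest listed neighbour of Lgals9 and the gene of inducible nitric oxide synthase, had 1098 counts in the knockout library and 404 in the wild type library, a log2 ratio of 1.22, or 0.96 once adjusted for length. Of the 19 genes directly beside the members in RefSeq, 7 were listed and 3 had enough counts, Nos2, Plgrkt and Adprh, the neighbour of Cd80, with a log2 ratio of -0.24.

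**Figure D2:**
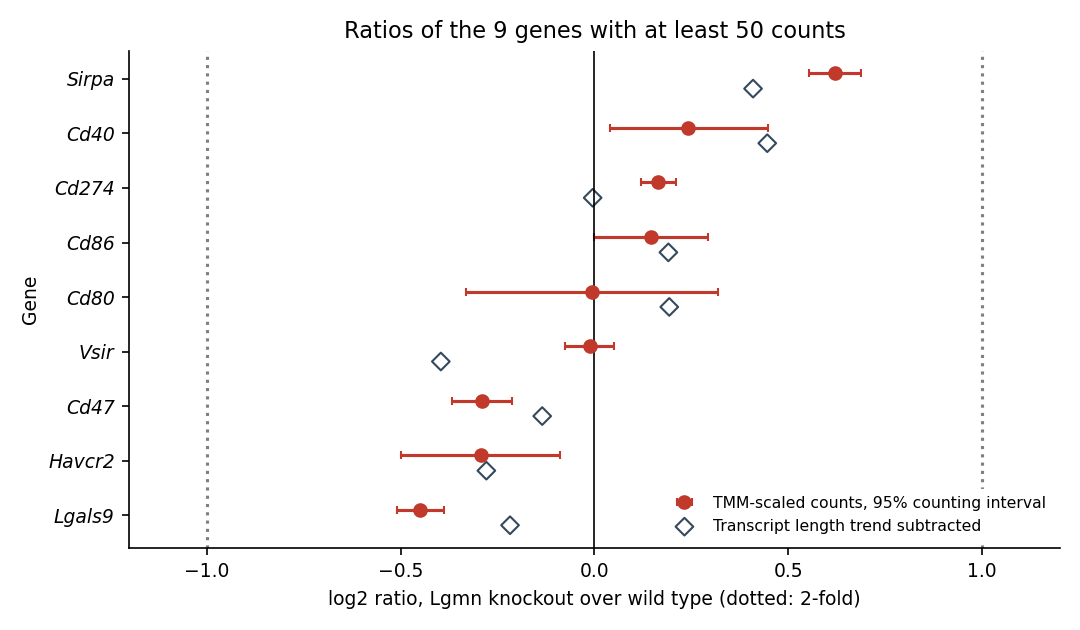
Log2 ratio of the knockout over the wild type library for the 9 genes with at least 50 counts: filled circles are TMM-scaled counts with 95% counting intervals, and open diamonds the same after the transcript length trend of all genes is subtracted. Every symbol lies between the dotted lines at 2-fold, with Sirpa at 0.62 and Lgals9 at -0.45 before adjustment.

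Log2 ratios in these libraries followed transcript length, with a Spearman rho of 0.609 across the 9498 genes, so each member was also read against genes of its own length. The tenth of genes that holds Lgals9 (1083.1 to 1525.9 bases) had a median log2 ratio of -0.28, and that of Sirpa (3813 to 4558 bases) one of 0.27. Across the 9 members rho was 0.30, given as a description of genes that share 2 libraries. With the trend subtracted, 2.14% of all genes passed 2-fold upward and 1.9% downward, and 0 of the 9 members passed in either direction.

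After this adjustment 4 of the 9 members lay above 0 and 5 below. Cd40 took the highest value, with a log2 of 0.45, and 12.4% of all genes lay above it. Sirpa followed at 0.41, and Cd80 and Cd86 both lay at 0.19. Cd274 was at -0.0047, on the trend for its length. Cd47 stood at -0.13, Lgals9 at -0.22 and Havcr2 at -0.28. Vsir, the longest transcript of the set at 4846 bases, had the lowest value, -0.40, with 87.3% of all genes above it. The pair of Sirpa and Cd47 differed by 0.54 on the log2 scale after adjustment, and by 0.91 before it.

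The choice of scaling moved all members together. Scaling by library totals in place of TMM raised the median log2 ratio of all genes by 0.24, and under it Sirpa was at 0.86, Cd40 at 0.48, Cd274 at 0.40 and Cd86 at 0.38. Cd80 and Vsir were then both at 0.23, on the other side of 0 from their scaled values. Cd47 and Havcr2 stayed below 0, at -0.05 and -0.06, and Lgals9 was at -0.21. The order of the members and the ratios between them do not depend on this choice.

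**Figure D3:**
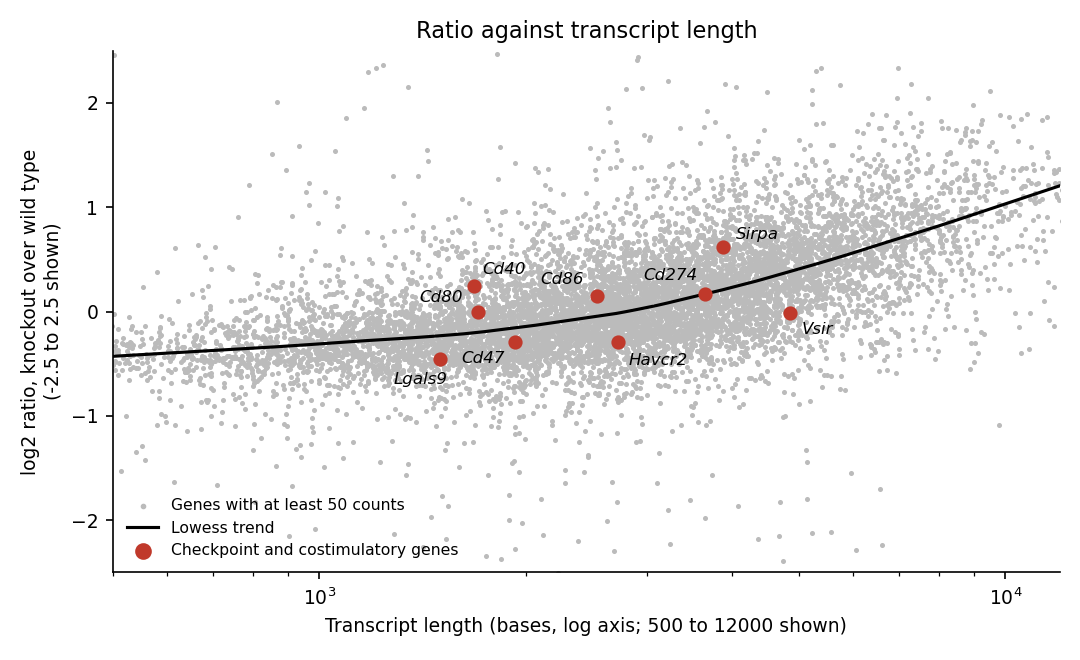
Log2 ratio of knockout over wild type against transcript length (log axis) for the 9498 genes with at least 50 counts (grey; points beyond the axis limits are not drawn), with the lowess trend (line) and the 9 checkpoint and costimulatory genes (red). Sirpa and Cd40 lie above the trend, Cd274 on it, and Vsir below it.

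Some genes known to regulate PD-L1 had greater ratios than Cd274 itself, as did 38.0% of all genes. Interferon gamma acts through JAK kinases and IRF1 to induce PD-L1, and SOCS1 limits that signal. The list holds interferon receptors, JAK and STAT genes and their feedback genes, and also genes that act on PD-L1 by other routes, such as Hif1a, Stub1 and Cmtm6. Of its 25 genes with enough counts, 2 passed 2-fold upward and 0 downward, against 6.06% and 1.74% of all genes. Of the 25, 18 had a log2 ratio above 0, as did 4747 of all 9498 genes, and the median of the 25 was 0.31. Irf1 had 5397 counts in the knockout library and 1799 in the wild type library, 2.57-fold higher (2.44 to 2.72). Socs1 had 227 counts in the knockout library and 37 in the wild type library, 5.16-fold higher (3.71 to 7.67).

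Tyk2, a kinase of interferon receptors, was 1.92-fold higher (1.57 to 2.38), a log2 ratio of 0.94, or 0.56 once adjusted for length. Jak2, a kinase of the interferon gamma receptor, had a log2 ratio of 0.54, or 0.13 once adjusted for length. After length adjustment 13 of the 25 lay above 0 and the median was 0.0054. Irf1 and Socs1 again passed 2-fold, against 2.14% of all genes upward. Cmtm6, whose product keeps PD-L1 on the cell surface, had 542 counts in the knockout library and 345 in the wild type library and a log2 ratio of 0.43.

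**Figure D4:**
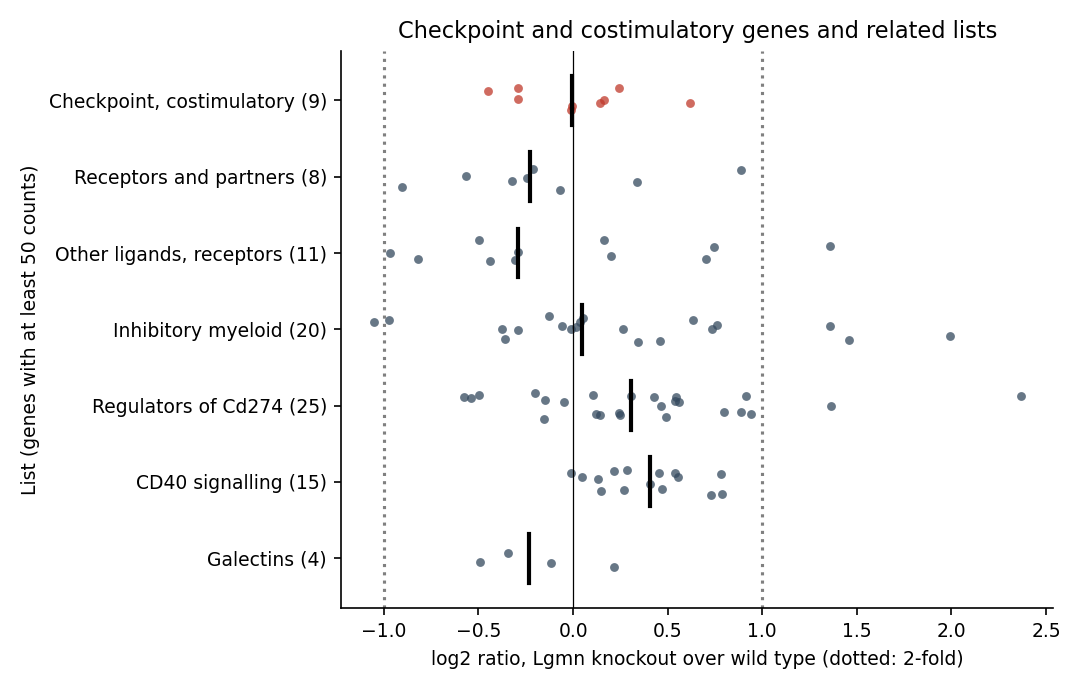
Log2 ratio of knockout over wild type for the genes with at least 50 counts in each list (number in brackets); each point is a gene, the thick line the list's median and the dotted lines mark 2-fold. The 9 checkpoint and costimulatory genes lie between the dotted lines, and the median of the CD40 signalling list is 0.41.

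The inhibitory T cell receptors for these ligands were near the detection limit, while Cd28 was not. Pdcd1, the gene of PD-1, had 2 counts in the knockout library and was not listed in the wild type library, and Ctla4 had 4 counts in the knockout library and 2 in the wild type library. Cd28 had 150 counts in the knockout library and 135 in the wild type library, a log2 ratio of -0.07. Of 8 receptors and partners with enough counts, 0 passed 2-fold, against 6.06% of all genes upward and 1.74% downward. The median log2 ratio of the 8 was -0.23, or -0.29 once adjusted for length. Thbs1, thrombospondin 1, which binds CD47, was 1.85-fold higher (1.75 to 1.96). Length adjustment took its log2 ratio to 0.35, against 0.89 without it. Tnfrsf9, the costimulatory receptor 4-1BB, was 1.87-fold lower (1.64 to 2.15), at 352 counts in the knockout library and 566 in the wild type library.

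Of 11 further ligands and receptors of these families with enough counts, among them the receptor genes Cd200r1 and Cd244a, 1 passed 2-fold upward and 0 downward. The shares of all genes were 6.06% and 1.74%. The median log2 ratio of the 11 was -0.29, or -0.035 once adjusted for length. Tnfrsf14, the gene of HVEM, which engages BTLA and LIGHT, had 133 counts in the knockout library and 44 in the wild type library, 2.56-fold higher (1.83 to 3.74). Length adjustment took its log2 ratio to 1.69, against 1.36 without it. Pvr and Nectin2, which encode the ligands CD155 and CD112 of TIGIT and CD226, were 1.76-fold (1.55 to 2.02) and 1.95-fold (1.47 to 2.64) lower. Icosl, the ligand of ICOS, had 51 counts in the knockout library and 38 in the wild type library. Cd276, the gene of B7-H3, had 96 counts in the knockout library and 112 in the wild type library. Ido1, an enzyme that depletes tryptophan, had 4 counts in the knockout library and 3 in the wild type library, and Cd70 was listed in neither library.

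Other cell types that carry these ligands or their partners were traced by their markers. Of 12 T and NK cell markers, 11 were listed in both libraries, with a summed FPKM of 46.2 in the knockout library and 20.5 in the wild type library. Of 6 with enough counts, 4 were at least 2-fold higher, against 6.06% of all genes. Trac was listed in neither library. Of 10 dendritic cell markers, 9 were listed in the knockout library and 6 in the wild type library. Their summed FPKM was 38.8 in the knockout library and 35.0 in the wild type library, most of it from Itgax, which macrophages also express, and Flt3 was listed in neither. Clec9a had 74 counts in the knockout library and 13 in the wild type library, a log2 ratio of 2.21. Fscn1 went the other way, from 49 counts in the knockout library and 132 in the wild type library, with -1.63. Of 3 dendritic cell markers with enough counts, 1 passed 2-fold upward and 1 downward, against 6.06% and 1.74% of all genes. The median log2 ratio of these 3 markers was -0.05.

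The 6 B cell markers summed to an FPKM of 23.0 in the knockout library and 15.4 in the wild type library, nearly all of it from Cd22, while Pax5 was listed in neither. The 10 epithelial carcinoma markers summed to 0.85 in the knockout library and 0.99 in the wild type library. Fibroblast and mesothelial markers, 12 in all, summed to 12.1 in the knockout library and 52.4 in the wild type library. Of these, 7 of 7 with enough counts were at least 2-fold lower, against 1.74% of all genes. The 6 neutrophil markers summed to 119 in the knockout library and 88.8 in the wild type library, most of it from S100a8, with a ratio of 1.08 (0.942 to 1.25). The part of any of these cells in the ratios of Sirpa, Cd40, Cd47 or the other members was not tested.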

How the data were processed

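Peritoneal macrophage RNA was sequenced on a BGISEQ-500 instrument, per the labels' protocols, and each sample's genotype label gave its group. Per the file headers, the authors deposited estimated counts, unscaled between libraries, together with FPKM and transcript length for each Entrez gene. The submitters' processing notes name HISAT2, Bowtie2, RSEM and mm10, but give them no role or version, and say nothing of strand that was available here. A gene missing from a file was taken as 0 counts there. Symbols came from RefSeq GRCm38.p6, the assembly of mm10, and matched 15561 of 15605 identifiers. Rounded counts were scaled by TMM (edgeR 4.0.16, R 4.3.3), with factors of 1.09 for the knockout and 0.921 for the wild type library. The ratio alternatives were DESeq2 1.42.0 size factors, library totals, deposited FPKM with 0.1 added, other pseudocounts (0.5, 5), other minimums (10, 200, none), a lowess length trend (span 0.3, statsmodels 0.14.6), thinning, and other thresholds (1.5-fold, 4-fold). Intervals are calculated from the counts of 1 library per genotype and so cover counting error only, and the reads carry no molecular identifiers. The members and lists were chosen with earlier results of these data known. In each list, the 3 genes with the largest absolute log2 ratios among those with enough counts are named. Further genes were named after their values were seen. The calculation was tested on simulated data. Some genes of the lists are not reported here.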

Additional observations from a re-analysis of the deposited data

How the results depend on the processing

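Of the members with enough counts, 0 passed 2-fold in any of the 10 alternatives to scaling, minimum, pseudocount, length or depth. A threshold of 1.5-fold set 1 member, Sirpa, as higher. Of 89 log2 ratios of members, 68 stayed within the counting interval and 21 moved beyond it. The other minimums only change which genes enter, so their values among the 68 could not move. All 21 that moved did so under library totals, deposited FPKM or subtraction of the length trend. The sign changed in 7 of the 89, of which 4, all of Cd80, were within the interval and 3, of Vsir and Cd274, beyond it. Library totals and deposited FPKM moved the median of all genes by 0.24 and 0.23. Cd47 and Havcr2 then lay at -0.05 and -0.06 under totals, and both at -0.05 with FPKM. Genes at least 2-fold higher and lower numbered 1036 and 107 with totals, a higher share of 90.6% against 77.7%, and 936 and 102 with FPKM. They numbered 922 and 436 with a minimum of 10 counts, 274 and 67 with 200, 1459 and 1531 with none, 1563 and 607 at 1.5-fold, and 40 and 45 at 4-fold. With the length trend subtracted, 203 were higher, 53.0% of those past 2-fold. Library totals leave out the TMM factors of 1.09 for the knockout and 0.921 for the wild type library, which moves all ratios together. The causes of the other shifts, beyond the numbers of genes and the thresholds themselves, were not tested. Depth limits Pdcd1lg2, and 1 library per genotype limits every comparison. No paired analysis was possible because each genotype has 1 library.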
